A study of Mus musculus with 16 samples.

Results

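The response of the cecal epithelium to Bifidobacterium longum alone was read from 4 of the 16 GeneChips of the series, 2 from mice mono-associated with B. longum (Bl) and 2 from germ-free mice (GF), all on the Mouse 430 2.0 array. A probe set, the group of probes that reads 1 transcript, was kept where both GeneChips of at least 1 colonization state had a signal above the median of all values in the table, 583.1. This left 24865 of 45101 probe sets and, with each gene read by its brightest probe set, 12937 of 18194 named genes. Of the probe sets kept, 11749 passed in both Bl and GF, 5061 in Bl but not GF, 3582 in GF but not Bl, and 4473 only in the other colonized states. Probe sets kept only through Bl were favoured to read higher in Bl, and those kept only through GF to read lower. The lowest deciding signal inside the filter was 583.2 and the highest outside it was 583.1.

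All animals were adult NMRI mice raised germ-free and fed autoclaved chow rich in plant polysaccharides, and the methods describe them as male. Bl mice carried B. longum NCC2705 for 10 days after a single gavage. Bt mice carried Bacteroides thetaiotaomicron and Bt/Bl mice both species for the same time, and GF mice received no bacteria. Epithelium was cut from cecal cryosections with a laser, the RNA of 4 mice was pooled in each state, and each pool was amplified in duplicate for 2 GeneChips. The duplicates therefore share their mice, so their spread is that of amplification and hybridization, and each test compares 1 pool with another. In such bulk samples, fewer cells of a type and less RNA per cell cannot be told apart.

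The cecal epithelium is a single layer of absorptive colonocytes and mucus-secreting goblet cells fed by stem cells at the base of its crypts. It meets gut bacteria with a mucus coat built on the mucin Muc2 and with secreted antibacterial proteins, among them the C-type lectins of the Reg3 family, angiogenins and resistin-like molecules. B. longum is a Gram-positive bacterium of the infant gut that ferments sugars to acetate and lactate.

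The 15 epithelial markers listed, such as Epcam, Krt8 and Vil1, were all above the filter, with log2 differences, Bl minus GF, from -0.99 to 0.42. Their summed signal was 1766707 and 1525651 in Bl, against 1562049 and 1429247 in GF, and 0 of the 15 differed over 2-fold without overlap of the duplicates. Bl GeneChip 9134 had the highest median signal of the 8 Mouse 430 2.0 GeneChips (759, against 474.9 to 653.8 on the other 7), and the Bl duplicates correlated less well (Pearson r = 0.883 across log2 signals) than the duplicates of the other states (0.914 to 0.947). The GF pool stood apart from the 3 colonized pools in several transcripts. Xist, which coats the silenced X chromosome, gave 4405 and 3753 in Bl, 4908 and 5086 in Bt, 7541 and 11176 in Bt/Bl and 17157 and 22762 in GF. Eif2s3y, a gene of the Y chromosome, gave 3201 and 4872 in Bl, 5056 and 4310 in Bt, 5657 and 4401 in Bt/Bl and 71.3 and 614 in GF. Fabp6, an ileal bile acid-binding protein, gave 1558 and 1309 in Bl, against 68029 and 95108 in GF, while the Bt and Bt/Bl GeneChips stayed within 1179 to 1798. Gapdh signal at the 3′ end relative to the 5′ end, which rises as RNA is shortened, was 10.43 and 17.62 in Bl, 11.81 and 8.928 in Bt, 15.64 and 12.6 in Bt/Bl and 5.657 and 7.256 in GF, while that of actin was 28.41 and 21.43 in Bl, against 36.92 and 38.78 in GF. The parts of the make-up of the GF pool and of RNA quality in the differences below were not tested. Values in Bt and Bt/Bl are given for the genes that passed the test and for some of the others.

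Signals below 583.1 were raised to that floor, and log2 differences were tested with limma on all 8 GeneChips with Benjamini-Hochberg adjustment over all 24865 probe sets. Against GF, 5 genes were higher in Bl and 7 lower at an adjusted p under 0.05. These are 0.0386% and 0.0541% of all genes tested, and over probe sets 5 were higher (0.0201%) and 14 lower (0.0563%). The higher genes were Ang4, Eif2s3y, Dbp, Aqp8 and Retnlb, and the lower ones were Fabp6, Reg3b, Apoa1, Xist, Igha, Adamdec1 and F2r. Eif2s3y and Xist are sex-linked, and by the signals above they set the GF pool apart from all 3 colonized pools. Their calls are therefore not read as a response to B. longum. Fabp6, Apoa1, Aqp8 and Retnlb also set GF apart from all 3 colonized pools, and the part of the GF pool in their calls was not tested. Of the calls in both directions Reg3b held in all 8 fits that left out 1 GeneChip. Ang4, Apoa1 and Fabp6 were lost without GF 9128 or GF 9129, Dbp held only without Bl 9135, and the other 7 held only without Bl 9134 or Bl 9135. A wider count took genes that differed over 2-fold with duplicates that did not overlap: 669 were higher in Bl (5.17%) and 378 lower (2.92%). These shares are the background of every count of list members over 2-fold against GF below. Of the genes in both directions together 63.9% were higher in Bl, and that share moved to 20.9% with each GeneChip scaled to a common median, 29.5% with a common 75th percentile and 43.3% with quantile normalization. The median log2 difference of all genes was 0.01 as deposited and -0.26, -0.18 and -0.02 under those scalings, so small shifts of whole groups have no settled direction.

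**Figure D1:**
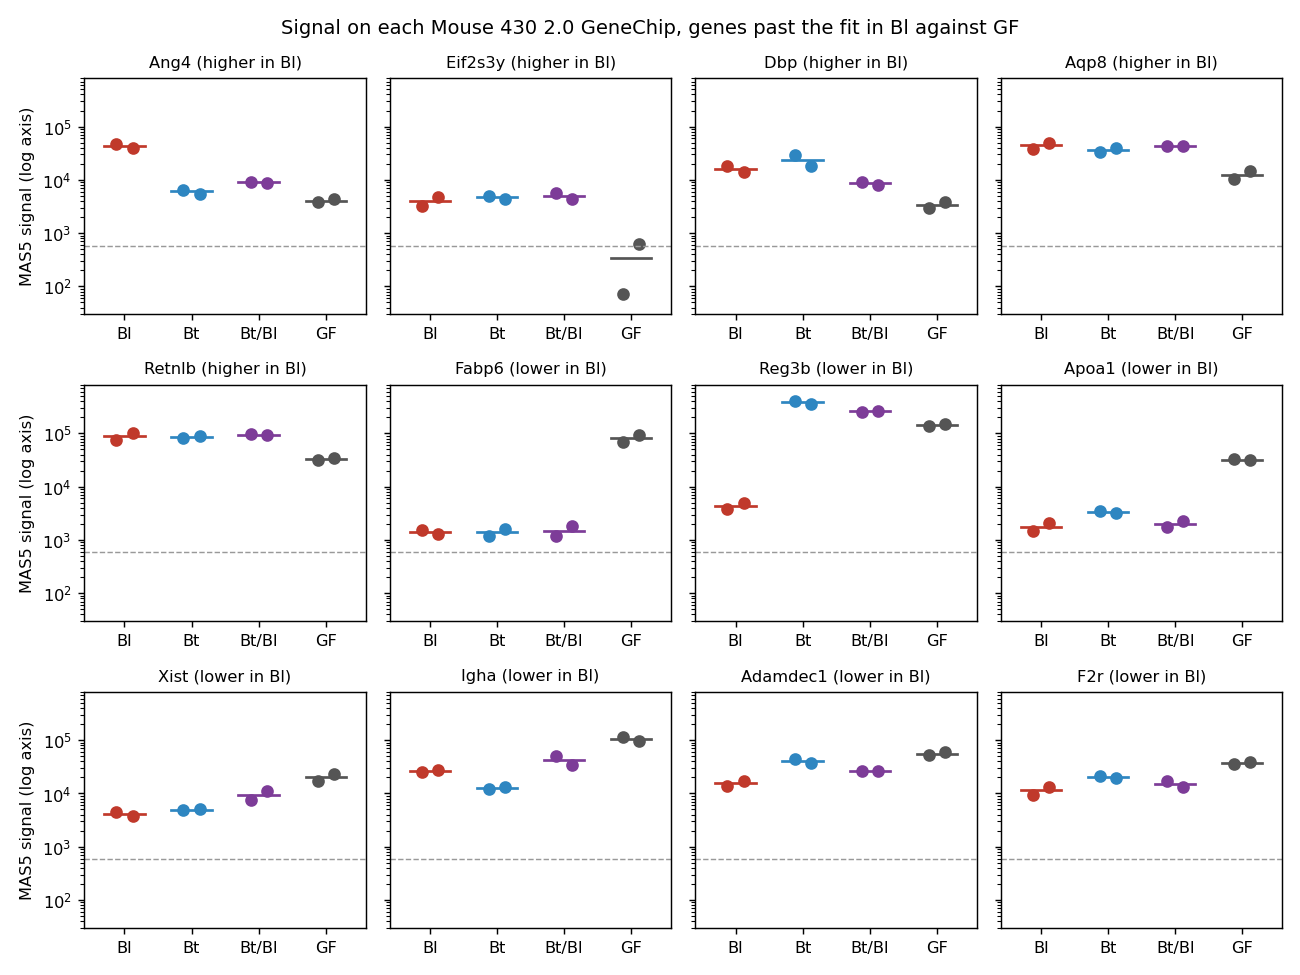
Signals of the 12 genes that passed the test in Bl against GF, on a log axis. Each point is 1 GeneChip, with the 2 GeneChips of each of the 4 states side by side. The Bl points of Reg3b and Ang4 lie over 4-fold from all 6 other GeneChips, while for Fabp6, Apoa1 and Aqp8 it is the GF points that lie apart.

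The call with the smallest adjusted p was a fall in an antibacterial lectin. Reg3b, a secreted C-type lectin that binds bacterial surface glycans, gave signals of 3803 and 4930 in Bl, 405724 and 362467 in Bt, 252956 and 263622 in Bt/Bl and 136536 and 151076 in GF. The Bl GeneChips were the lowest of the 8 by a wide margin, and Reg3b was 33.2-fold lower than in GF (log2 difference -5.05, standard error 0.21, limma adjusted p = 3.47e-06). The second Reg3b probe set gave -3.63 (adjusted p = 0.0001). Reg3g, its close relative with activity against Gram-positive bacteria, gave 152 and 33.6 in Bl, 16629 and 9676 in Bt, 7321 and 7842 in Bt/Bl and 2437 and 2154 in GF. Both Bl values lay below the floor, so Reg3g was at least 3.93-fold lower than in GF (adjusted p = 0.138, not past the test), at least 21.8-fold lower than in Bt (adjusted p = 6.36e-04) and at least 13-fold lower than in Bt/Bl (adjusted p = 0.00328). With both GF GeneChips left out of the fit the call against Bt held (adjusted p = 0.0431) and that against Bt/Bl was lost (adjusted p = 0.106). Of the other 4 Reg genes tested 0 passed or exceeded 2-fold. Reg4, a goblet cell lectin, gave 12211 and 13027 in Bl, against 8233 and 8608 in GF (adjusted p = 0.322).

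Against the other colonized states, which do not involve the GF pool, Reg3b was 88.6-fold lower in Bl than in Bt (log2 difference -6.47, adjusted p = 2.67e-07) and 59.6-fold lower than in Bt/Bl (-5.90, adjusted p = 6.97e-07). With both GF GeneChips left out of the fit these p-values were 0.00078 and 0.0014. Against GF its adjusted p reached 0.0195 at most in the 8 fits without 1 GeneChip.

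Ang4 moved the other way. This angiogenin, a microbicidal ribonuclease of mouse Paneth and goblet cells, gave 46895 and 40107 in Bl, 6570 and 5535 in Bt, 9287 and 8912 in Bt/Bl and 3818 and 4280 in GF. The Bl pool was the highest of the 4, and Bt and Bt/Bl lay between Bl and GF. Ang4 was 10.7-fold higher than in GF (log2 difference 3.42, standard error 0.22, adjusted p = 1.00e-04), 7.19-fold higher than in Bt (adjusted p = 6.36e-04) and 4.77-fold higher than in Bt/Bl (adjusted p = 0.00416). Without the GF GeneChips the adjusted p was 0.0328 against Bt and 0.104 against Bt/Bl, and without either GF GeneChip alone Ang4 missed the test against GF (adjusted p up to 0.0692). A second Ang4 probe set gave 2.33 (adjusted p = 0.058).

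The 250 bases upstream of the start sites of Reg3b, Reg3g and Ang4 are shown because these 3 genes passed the test against both other colonized states in the fit over all 8 GeneChips, Ang4 upward and the lectins downward. They come from RefSeq on GRCm38.p6 and read 5′ to 3′ on the strand of each gene. Capitals mark TTCNNNGAA, the core of a STAT site, and TATAAA, each searched on both strands.
Reg3b, chr6:78370635-78370884, plus strand: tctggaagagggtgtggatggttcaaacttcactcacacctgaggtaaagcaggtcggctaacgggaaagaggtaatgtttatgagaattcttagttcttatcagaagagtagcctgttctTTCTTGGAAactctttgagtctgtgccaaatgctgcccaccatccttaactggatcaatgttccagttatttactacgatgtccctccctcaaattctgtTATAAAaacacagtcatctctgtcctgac
Reg3g, chr6:78468875-78469124, minus strand: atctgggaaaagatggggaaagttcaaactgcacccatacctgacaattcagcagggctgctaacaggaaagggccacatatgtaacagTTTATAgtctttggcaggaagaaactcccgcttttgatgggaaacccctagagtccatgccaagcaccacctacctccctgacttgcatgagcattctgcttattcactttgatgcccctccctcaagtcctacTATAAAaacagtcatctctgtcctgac
Ang4, chr14:51773591-51773840, minus strand: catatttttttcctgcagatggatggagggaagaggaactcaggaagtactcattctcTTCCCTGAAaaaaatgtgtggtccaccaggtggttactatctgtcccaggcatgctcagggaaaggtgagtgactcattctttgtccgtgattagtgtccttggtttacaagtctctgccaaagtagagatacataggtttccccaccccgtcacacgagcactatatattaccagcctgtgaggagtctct
The Reg3b and Reg3g stretches were identical at 175 of 254 aligned columns (68.9%), while Ang4 matched Reg3b at 45.4% and Reg3g at 46.6%. TTCNNNGAA began 129 bases before the Reg3b start and 192 before the Ang4 start and was not in the Reg3g stretch. TATAAA stood 29 bases before the Reg3b start and 27 before the Reg3g start, with another on the opposite strand of Reg3g at 161. Of 32851 stretches of the same length 7.02% held TTCNNNGAA and 12.4% held TATAAA, so each match is common and is given as a description.

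Among 13 secreted goblet and Paneth cell defence proteins, Ang4 and Retnlb rose (0.0386% of all genes did). Of the 13, 3 were over 2-fold higher without overlap and 1 was lower (5.17% and 2.92% of all genes). Their median log2 difference of 0.37 stayed above 0 under the 3 other scalings. Retnlb, a resistin-like molecule of goblet cells that binds bacteria, gave 75687 and 100721 in Bl, 80494 and 89551 in Bt, 96333 and 91537 in Bt/Bl and 31409 and 34152 in GF. All 3 colonized pools were above GF, and Retnlb was 2.67-fold higher in Bl than in GF (log2 difference 1.41, standard error 0.21, adjusted p = 0.047). Its adjusted p reached 0.612 in the fits without 1 GeneChip. Itln1, the lectin intelectin of goblet and Paneth cells, gave 7476 and 13031 in Bl, 6648 and 7700 in Bt, 6360 and 5553 in Bt/Bl and 2432 and 3236 in GF (adjusted p = 0.133 against GF). Lyz1, the lysozyme of Paneth cells, gave 8081 and 5773 in Bl, 21606 and 11157 in Bt, 15634 and 13218 in Bt/Bl and 20428 and 15797 in GF (adjusted p = 0.223 against GF) and was thus on the other side of 0 from Ang4 and Itln1, although another of its 3 probe sets gave 0.23 (adjusted p = 0.78). The bulk goblet product Zg16 gave 907794 and 660578 in Bl, against 653866 and 521292 in GF, with the lower Bl value next to the higher GF value.

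**Figure D2:**
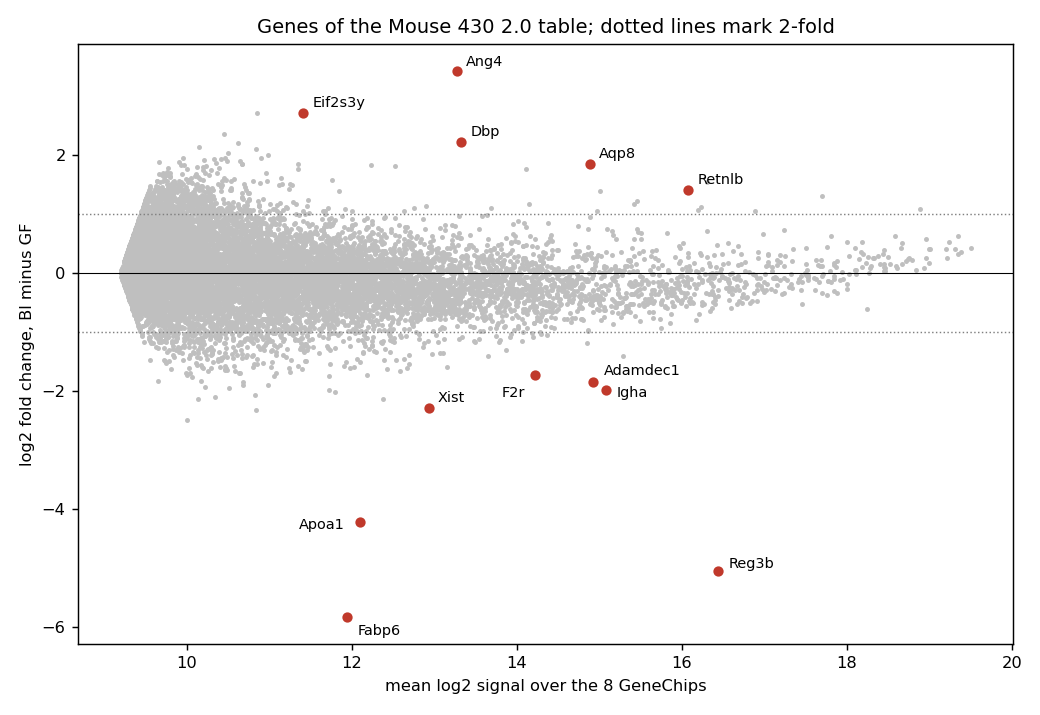
Log2 difference of each of 12937 genes, Bl minus GF (vertical axis), against its mean log2 signal over the 8 Mouse 430 2.0 GeneChips (horizontal axis), with the genes past the test named. Reg3b at -5.05 and Ang4 at 3.42 lie far from the bulk of genes, whose median is 0.01.

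Mucins had higher signals in Bl on the Mouse 430 2.0, although none passed the test. All 6 mucins above the filter had positive differences, with a median of 0.77 on the log2 scale that kept its sign under the 3 other scalings (0.42 to 0.86), against 0.01 over all genes and 50.6% of all genes above 0. Muc2, the gel-forming mucin of the colon, gave 59458 and 37734 in Bl, 89920 and 81136 in Bt, 33935 and 38645 in Bt/Bl and 28272 and 30154 in GF. Bl lay above GF and below Bt, and its difference from GF was 0.70 (95% interval 0.18 to 1.22, adjusted p = 0.311). The membrane mucin Muc4 gave 3870 and 3102 in Bl, 2277 and 3541 in Bt, 5938 and 7952 in Bt/Bl and 1913 and 1463 in GF. Muc20, another membrane mucin, gave 1700 and 1460 in Bl, 1456 and 254 in Bt, 1041 and 57.5 in Bt/Bl and 611 and 194 in GF. Both were over 2-fold higher in Bl than in GF (adjusted p = 0.32 and 0.377), while the second Muc4 probe set gave -0.29 (adjusted p = 0.655). Muc20 passed the filter only in Bl, so the filter itself favoured its positive difference, and Muc20 adds no support to the count of 6. On the GlycoGeneChip, a second array described at the end, Muc3 and Muc1 read lower in Bl without passing the test. Muc3 gave 9505 and 15617 in Bl, against 17298 and 18134 in GF, and Muc1 gave 369 and 1354 in Bl, against 2164 and 1944 in GF (adjusted p = 0.507 and 0.366).

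Clca1, a secreted metalloprotease that goblet cells add to mucus, came closest to the test. It gave 85225 and 78138 in Bl, 36004 and 36349 in Bt, 37098 and 41467 in Bt/Bl and 33547 and 35968 in GF, so that Bl was the highest of the 4 states. Its log2 difference was 1.23 from GF (adjusted p = 0.0543), 1.17 from Bt (adjusted p = 0.166) and 1.06 from Bt/Bl (adjusted p = 0.229). Spink4, a small protease inhibitor of goblet cells, gave 106554 and 85713 in Bl, 108445 and 82259 in Bt, 84331 and 94255 in Bt/Bl and 44905 and 43044 in GF (adjusted p = 0.203 against GF). Of 19 goblet cell differentiation and mucus genes these 2 exceeded 2-fold and 0 were lower to that extent, but 9 had positive and 10 negative differences and their median was 0.00 (-0.25 with a common median), so the mucins and these genes did not share a direction. In the list of gasdermins, inflammasome caspases and epithelial Trim genes, 2 of 12 were over 2-fold higher (5.17% of all genes were). Gsdmc2, a pore-forming gasdermin of the colon, gave 177230 and 128630 in Bl, 69192 and 47233 in Bt, 101718 and 89330 in Bt/Bl and 53739 and 50192 in GF. Its difference was 1.54 from GF (adjusted p = 0.0769) and 0.66 from Bt/Bl (adjusted p = 0.344). Il18, a cytokine that caspase-1 activates, gave 6138 and 5976 in Bl, against 8866 and 3776 in GF, with GF values that spanned those of Bl.

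Serum amyloids, which epithelium makes on contact with bacteria, had higher signals in Bl without passing the test. Saa1 gave 592231 and 656287 in Bl, 559833 and 567469 in Bt, 533027 and 545373 in Bt/Bl and 288216 and 296403 in GF (difference from GF 1.09, adjusted p = 0.22). All 6 colonized GeneChips exceeded both GF values. Saa2 gave 2795 and 3613 in Bl, 1802 and 3128 in Bt, 2063 and 1924 in Bt/Bl and 438 and 933 in GF (adjusted p = 0.223 against GF).

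No interferon-stimulated gene passed the test between Bl and GF. Of 31 Ifit and other type I interferon-stimulated genes 0 passed the test, 2 were over 2-fold higher and 0 lower, with a median of -0.06. Oas1a, an antiviral oligoadenylate synthetase, gave 44681 and 30653 in Bl, against 19743 and 15901 in GF (adjusted p = 0.242). Ifit1, which binds foreign RNA, gave 6239 and 6728 in Bl, 9757 and 8443 in Bt, 43357 and 44125 in Bt/Bl and 3390 and 4845 in GF. Bl was close to Bt and GF, and the co-colonized pool was far above all of them.

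Against Bt/Bl the same list lay low in Bl: 26 of 31 genes had negative differences, 16 were over 2-fold lower without overlap (3.05% of all genes were) and 0 higher (4.87% of all genes), with a median of -1.13 against 0.00 over all genes. Ifit1 passed the test (-2.76, adjusted p = 0.00245), also with the GF GeneChips left out (adjusted p = 0.0261). Ifit1bl1, another Ifit gene, gave 43300 and 40984 in Bl, against 105547 and 109044 in Bt/Bl (adjusted p = 0.0603), and Rsad2, an antiviral enzyme, gave 2257 and 3446 in Bl, against 12983 and 10428 in Bt/Bl (adjusted p = 0.109). Among 8 interferon-inducible GTPases 3 were over 2-fold lower in Bl than in Bt/Bl. Ifi47 gave 4714 and 4123 in Bl, 14472 and 17389 in Bt/Bl and 2586 and 3060 in GF (Bl minus Bt/Bl -1.85, adjusted p = 0.136). Ifit1bl1 was chosen after its values were seen.

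The genes of antigen presentation and cytokine signalling gave 0 calls against GF. Of 16 MHC class I genes 3 were over 2-fold higher (5.17% of all genes were). Among them H2-T3, a class I-like molecule of gut epithelium, gave 148454 and 142641 in Bl, against 52778 and 92032 in GF (adjusted p = 0.244), while its other probe set gave 0.27. The 10 MHC class II genes had 0 over 2-fold and a median of 0.08. Of 20 TNF and NF-κB targets 1 exceeded 2-fold, Zc3h12a, a ribonuclease that degrades inflammatory mRNAs, with 3131 and 2161 in Bl, against 1624 and 740 in GF (adjusted p = 0.464). The other Zc3h12a probe set gave 0.12. Of 19 Toll-like and Nod receptor genes the adaptor kinase Irak1 was lower by its brightest probe set, with 7180 and 4094 in Bl, against 12471 and 12206 in GF (adjusted p = 0.249). Its other probe sets gave -0.65, -0.08 and 0.21, so its direction is not settled. Of 22 Socs, Stat and cytokine receptor genes 0 exceeded 2-fold. The medians of these lists lay within 0.14 of 0 and changed sign with the scaling.

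Among 14 chemokines 1 was over 2-fold higher and 2 lower. Ccl25, which draws lymphocytes to the small bowel, gave 257 and 235 in Bl, against 2272 and 1150 in GF, with both Bl values below the floor, and Cxcl16 gave 3258 and 2206 in Bl, against 1639 and 876 in GF (adjusted p = 0.231 and 0.393). Ccl6, a chemokine of myeloid cells that the study also named, gave 1664 and 1702 in Bl, 11919 and 10959 in Bt, 1967 and 2127 in Bt/Bl and 2534 and 1955 in GF. Bt was the pool that stood above the others, and Ccl6 was 6.79-fold lower in Bl than in Bt (adjusted p = 0.0178), a call that was lost with the GF GeneChips left out (adjusted p = 0.165).

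The transcript of the IgA heavy chain fell. Igha, the constant region of the IgA heavy chain, gave 25565 and 27712 in Bl, 12171 and 13110 in Bt, 49896 and 34067 in Bt/Bl and 113964 and 95694 in GF. GF held the most and Bt the least, and Igha was 3.92-fold lower in Bl than in GF (log2 difference -1.97, standard error 0.22, adjusted p = 0.00838). A second of its 3 probe sets passed as well (-1.87, adjusted p = 0.0032), as did a probe set shared by immunoglobulin kappa genes (-1.46, adjusted p = 0.0397). Jchain, which joins IgA dimers, gave 3497 and 3590 in Bl, 789 and 2226 in Bt, 6182 and 5885 in Bt/Bl and 9551 and 11759 in GF (adjusted p = 0.26 against GF). These transcripts belong to plasma cells, and 3 of the 9 genes of the IgA list were over 2-fold lower (2.92% of all genes were). Pigr, the epithelial receptor that carries IgA to the lumen, gave 341265 and 251623 in Bl, against 271856 and 238814 in GF.

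Plasma cells lie under the epithelium, as do fibroblasts and other immune cells. Of 18 fibroblast and matrix markers 15 had negative differences (49% of all genes had), 4 were over 2-fold lower (2.92% of all genes) and 1 fell, with a median of -0.54 that kept its sign under the 3 other scalings (-0.83 to -0.46). Their summed signal was 59564 and 48570 in Bl, 100369 and 93534 in Bt, 65693 and 64015 in Bt/Bl and 126320 and 123424 in GF. Adamdec1, a metalloprotease of the lamina propria, gave 13749 and 17394 in Bl, 44297 and 37624 in Bt, 26266 and 26316 in Bt/Bl and 51699 and 59602 in GF. It was lowest in Bl and 3.59-fold below GF (log2 difference -1.84, standard error 0.21, adjusted p = 0.00749). The matrix protein periostin (Postn) gave 2104 and 2262 in Bl, 4599 and 4868 in Bt, 3957 and 3731 in Bt/Bl and 5642 and 7798 in GF (adjusted p = 0.177 against GF). Collagen Col3a1 gave 5492 and 5005 in Bl, 9046 and 11489 in Bt, 8339 and 6760 in Bt/Bl and 15386 and 11560 in GF (adjusted p = 0.193 against GF), so for both Bl was the lowest of the 4 pools and GF the highest. F2r, the thrombin receptor, which is in none of the lists, gave 9429 and 13498 in Bl, 21583 and 19143 in Bt, 17072 and 13432 in Bt/Bl and 35582 and 39364 in GF (Bl minus GF -1.73, adjusted p = 0.0276), and its other probe set gave -0.80 (adjusted p = 0.356).

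The summed signal of 9 plasma and B cell markers was 38130 and 36982 in Bl, against 133909 and 113607 in GF. Igha and Jchain are among the 9, and Igha alone gave 25565 and 27712 in Bl, against 113964 and 95694 in GF. The sum thus mostly repeats the fall of Igha, and the median of the list was -0.22. The 14 macrophage and dendritic cell markers summed to 20759 and 13085 in Bl, against 22500 and 18900 in GF. Of the 14, 2 were over 2-fold lower, among them the myeloid adaptor Tyrobp with 232 and 375 in Bl, against 2112 and 1659 in GF. Markers of smooth muscle gave sums that overlapped, 58090 and 38203 in Bl, against 45660 and 39641 in GF. Of 9 endothelial, 9 T cell and 9 enteric nerve markers 0 exceeded 2-fold without overlap, and the T cell list had a median of 0.45, above 0. Not all immune markers were low in Bl. Of 6 granulocyte and mast cell markers 2 were over 2-fold higher and 0 lower (5.17% and 2.92% of all genes). They were the eosinophil genes Siglecf (2385 and 1852 in Bl, against 1178 and 337 in GF) and Epx (1605 and 1008 in Bl, against 455 and 366 in GF). Epx passed the filter only in Bl, so its higher reading was favoured by the filter and adds no support. The B cell factor Pax5 was over 2-fold higher within the plasma and B cell list (1488 and 1942 in Bl, against 986 and 124 in GF). The limma adjusted p was 0.387 for Siglecf, 0.296 for Epx and 0.539 for Pax5. The amount of captured lamina propria was not measured, and its part in the Igha and Adamdec1 results was not tested.

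Genes of the ileum gave the largest decrease. Of 18 ileal and proximal enterocyte genes 2 fell (0.0541% of all genes did) and 5 were over 2-fold lower (2.92%), with 1 higher (5.17%). Fabp6 was 56.3-fold lower in Bl than in GF (log2 difference -5.82, standard error 0.35, adjusted p = 7.74e-05). Apoa1, the apolipoprotein of high-density lipoprotein, gave 1478 and 2047 in Bl, 3501 and 3162 in Bt, 1748 and 2223 in Bt/Bl and 33239 and 31104 in GF, and was 18.5-fold lower than in GF (log2 difference -4.21, standard error 0.30, adjusted p = 1.58e-04). All 4 of its probe sets passed, at -4.69 to -3.45. For both genes GF stood apart and the 3 colonized pools lay close together, with Bl minus Bt and Bl minus Bt/Bl at 0.02 and -0.03 for Fabp6 and at -0.94 and -0.18 for Apoa1. Without either GF GeneChip both missed the test (adjusted p up to 0.0846 and 0.125).

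Further genes of absorption had lower signals in Bl but missed the test. Apob, the scaffold of chylomicrons, gave 28165 and 35409 in Bl, 36918 and 47778 in Bt, 21192 and 25030 in Bt/Bl and 86650 and 81167 in GF (adjusted p = 0.0578 against GF). The brush border peptidase Enpep gave 5266 and 6593 in Bl, 9567 and 8126 in Bt, 4960 and 3348 in Bt/Bl and 11218 and 14539 in GF (adjusted p = 0.242 against GF). Of 11 brush border hydrolases 3 were over 2-fold lower (2.92% of all genes were), with a median of -0.38. Of 15 amino acid and peptide transporters 3 were lower and 1 higher (2.92% and 5.17% of all genes). Slc7a9, a cystine transporter subunit, gave 1351 and 1521 in Bl, 3326 and 3532 in Bt, 750 and 1009 in Bt/Bl and 4351 and 4290 in GF (adjusted p = 0.242 against GF). Pdzk1, a scaffold of brush border transporters, gave 76.0 and 72.8 in Bl, below the floor as on all 6 colonized GeneChips, against 2305 and 1863 in GF, so Bl was at least 3.55-fold lower (adjusted p = 0.188). The median of the ileal list against the other colonized states was -0.11 for Bt and 0.30 for Bt/Bl, against -0.29 for GF.

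Some lipid transport genes had higher signals in Bl, again without passing the test. Apoc2, the cofactor of lipoprotein lipase, gave 30867 and 24517 in Bl, 22506 and 17937 in Bt, 17266 and 15236 in Bt/Bl and 13316 and 11229 in GF (adjusted p = 0.194 against GF). Mttp, which loads lipid onto apolipoprotein B, gave 1688 and 1810 in Bl, 1121 and 941 in Bt, 1453 and 1334 in Bt/Bl and 99.1 and 734 in GF by its brighter probe set (Bl minus GF 1.42, adjusted p = 0.349), but its other probe set was over 2-fold lower in Bl (-1.05, adjusted p = 0.214), so its direction is not settled. In all, 4 of 17 apolipoprotein and lipid export genes, Mttp included, were over 2-fold higher and 2 lower, so the list had no common direction.

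**Figure D3:**
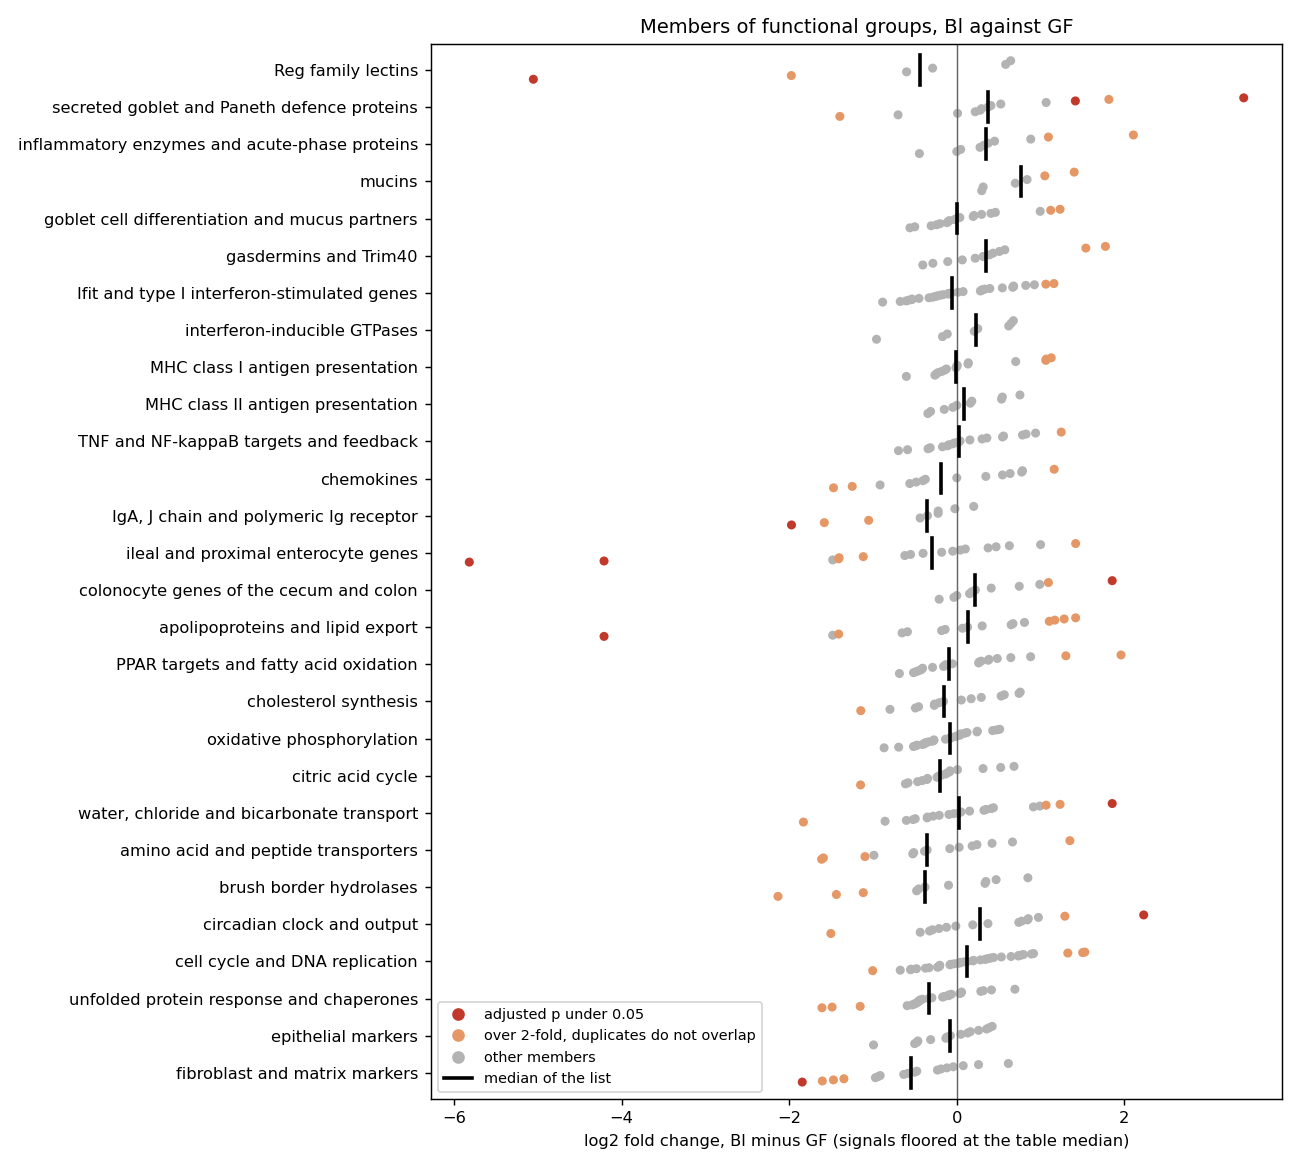
Log2 differences, Bl minus GF, of the members of the gene lists named on the left, 1 point a gene, with black bars at the list medians. Points past the test are red and points over 2-fold without overlap of the duplicates are orange. The mucins lie wholly to the right of 0, and most fibroblast and matrix markers lie to the left.

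Water and ion transport held 1 gene that passed the test upward. Aqp8, the apical water channel of colonocytes, gave 38596 and 49985 in Bl, 33810 and 39872 in Bt, 42880 and 42730 in Bt/Bl and 10169 and 14517 in GF. The Bl values overlapped those of Bt and of Bt/Bl, and all 6 colonized GeneChips lay above GF. Aqp8 was 3.62-fold higher in Bl than in GF (log2 difference 1.85, standard error 0.23, adjusted p = 0.0159), and differed by 0.26 from Bt and 0.04 from Bt/Bl. Its adjusted p reached 0.469 in the fits without 1 GeneChip. Of the other 22 transport genes of the list, Clca1 and Clca3a1 were over 2-fold higher and Pdzk1 lower, although the other Clca3a1 probe set gave 0.10. The 8 carriers of short-chain fatty acids and monocarboxylates had 0 past 2-fold and a median of 0.45, positive under all 3 other scalings.

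No gene of energy metabolism passed the test. Of 29 oxidative phosphorylation genes 0 exceeded 2-fold and the range was -0.87 to 0.51. The citric acid cycle, glycolysis and cholesterol synthesis each held 1 gene over 2-fold lower: Idh3a (3638 and 7901 in Bl, against 9855 and 14318 in GF), Fbp2 (6403 and 16136 in Bl, against 18977 and 22640 in GF) and Idi1 (6363 and 11759 in Bl, against 16061 and 22798 in GF), with adjusted p of 0.29, 0.322 and 0.261. The 4 probe sets of Idh3a disagreed: another was also lower (-1.06), but the remaining ones gave 1.66 (over 2-fold higher, adjusted p = 0.351) and 0.25. Scd1, the fatty acid desaturase, gave 1426 and 1233 in Bl, against 3082 and 2991 in GF (adjusted p = 0.39). Me1, malic enzyme, gave 1396 and 1276 in Bl, 5932 and 7082 in Bt, 201 and 99.8 in Bt/Bl and 102 and 78.3 in GF (adjusted p = 0.401 against GF). Its GF values lay below the floor, and its other probe set gave -0.21 (adjusted p = 0.944). By the brightest probe sets fatty acid synthesis thus held 1 gene on each side.

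Targets of the PPAR receptors held 2 genes over 2-fold higher than in GF of 22. Acaa1b, a peroxisomal thiolase, gave 270804 and 271379 in Bl, 392354 and 437043 in Bt, 164919 and 168837 in Bt/Bl and 112718 and 107337 in GF. The Bl duplicates were nearly equal and Bl lay between GF and Bt (Bl minus GF 1.30, adjusted p = 0.0785). Pdk4, which holds back pyruvate oxidation, gave 2720 and 2760 in Bl, against 616 and 806 in GF (adjusted p = 0.218). Against Bt, 20 of the 22 had negative differences, with a median of -0.64 against 0.00 over all genes, and 5 were over 2-fold lower and 0 higher (3.83% and 4.39% of all genes were). The pantetheinase Vnn1 gave 6428 and 9519 in Bl, 39171 and 32339 in Bt and 5024 and 6236 in GF, and passed the test against Bt with both of its probe sets (-2.19, adjusted p = 0.0145, and -2.71, adjusted p = 0.0052). Both calls were lost with the GF GeneChips left out (adjusted p = 0.252 and 0.225).

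The circadian output gene Dbp rose. It encodes a PAR bZIP transcription factor whose transcript peaks once a day, and gave 18078 and 14120 in Bl, 29501 and 18554 in Bt, 9300 and 8142 in Bt/Bl and 3002 and 3863 in GF. Bl lay below Bt and above Bt/Bl and GF. Its log2 difference from GF was 2.23 (standard error 0.28, adjusted p = 0.0159), while the other probe set gave 1.43 (adjusted p = 0.261). Per3, another output of the clock, gave 2103 and 2562 in Bl, against 258 and 1547 in GF (another of its 3 probe sets gave -0.24), and Cry1, a repressor within it, gave 1231 and 3759 in Bl, against 5283 and 7027 in GF (adjusted p = 0.465 and 0.29). Of 16 clock genes 2 were over 2-fold higher and 1 lower. The hour at which each pool was collected is not given in the sources used here, and its part was not tested.

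Retinoid and detoxification genes varied singly. Tgm2, a transglutaminase induced by retinoic acid, gave 86390 and 53314 in Bl, against 35618 and 29057 in GF (1 of its 5 probe sets gave -0.64), and Lrat, which esterifies retinol, gave 1618 and 539 in Bl, against 3126 and 2713 in GF (adjusted p = 0.241 and 0.367). The carboxylesterase Ces2b gave 85753 and 71430 in Bl, 97380 and 50344 in Bt, 19733 and 18699 in Bt/Bl and 33696 and 35465 in GF. It differed from Bt/Bl by 2.03 (adjusted p = 0.0603) and from Bt by 0.16 (adjusted p = 0.873), with Bt values that spanned those of Bl. The aldo-keto reductase Akr1c18 gave 2747 and 3526 in Bl, against 674 and 1236 in GF, and Cyp1a1, the classic target of the aryl hydrocarbon receptor, gave 1845 and 647 in Bl, against 3051 and 3110 in GF (adjusted p = 0.223 and 0.393). Of 32 glutathione, glucuronide and sulfate conjugation genes 0 exceeded 2-fold.

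Of 39 cell cycle and replication genes 3 were over 2-fold higher than in GF and 1 lower, near the background shares. The mitotic kinase Aurka gave 1482 and 1905 in Bl, against 80.5 and 540 in GF, and the replicative helicase subunit Mcm6 gave 1115 and 2052 in Bl, against 2694 and 3416 in GF (adjusted p = 0.408 and 0.378). The other Mcm6 probe set gave -0.07. Of 16 stem and progenitor markers 2 were higher and 1 lower. Plet1, a surface protein of crypt progenitors, gave 2703 and 1637 in Bl, 3140 and 3336 in Bt, 10593 and 12633 in Bt/Bl and 365 and 280 in GF, so Bl was higher than GF but the lowest of the colonized pools by this probe set (Bl minus GF 1.85, adjusted p = 0.208). The other Plet1 probe set went the opposite way and was over 2-fold lower in Bl than in GF (-1.22, adjusted p = 0.564).

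Of 20 enteroendocrine genes 2 were over 2-fold higher, Pax4 and Tac1, both with signals near the floor in GF, and of 8 tuft cell markers 0 were. Of 20 immediate early genes 2 were over 2-fold higher and 0 lower (5.17% and 2.92% of all genes). Egr3 gave 3188 and 1268 in Bl, against 195 and 92.6 in GF, and Junb gave 1597 and 914 in Bl, against 94.9 and 77.3 in GF (adjusted p = 0.287 and 0.313). The GF values of both genes lay below the floor. Both genes passed the filter only in Bl, which favoured higher readings there.

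Most chaperones had lower signals in Bl, and none passed the test. Of 27 unfolded protein response and chaperone genes 20 had negative differences (49% of all genes had) and 3 were over 2-fold lower (2.92% of all genes), with a median of -0.33 that kept its sign under the 3 other scalings. The heat-shock proteins were among them: Hspa1a gave 1664 and 2374 in Bl, against 4723 and 6576 in GF, and Hspa1b gave 11737 and 15050 in Bl, against 26917 and 32433 in GF (adjusted p = 0.253 and 0.205). For both genes Bl lay close to Bt (Bl minus Bt -0.11 and 0.04).

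Of 16 tight junction genes Cldn4 was over 2-fold higher (2098 and 2627 in Bl, against 1028 and 1294 in GF) and Cldn12 lower (11085 and 16631 in Bl, against 26556 and 29130 in GF). Of 30 O-glycan enzymes of mucins St3gal1 was higher (4052 and 2433 in Bl, against 1078 and 1655 in GF) and St6galnac2 lower (114 and 1175 in Bl, against 1800 and 1855 in GF), and of 11 fucosyltransferases and Abo, 7 kallikreins and 16 metallothioneins and zinc transporters 0 exceeded 2-fold.

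Most other genes that the study names in this tissue did not pass the test in Bl. Ada, adenosine deaminase, gave 3304 and 3969 in Bl, against 1304 and 1232 in GF (log2 difference 1.51, adjusted p = 0.244), and the lipase Pnliprp2 gave 2192 and 2178 in Bl, against 1200 and 568 in GF (1.39, adjusted p = 0.4). Pnliprp2 is a gene of the pancreas, and 9 of 10 genes of the pancreatic acinar list had positive differences (50.6% of all genes had). Pnliprp2, Rnase1 and Prss2 were over 2-fold higher (5.17% of all genes). Each had a GF value below the floor, and the adjusted p of Rnase1 and Prss2 was 0.367 and 0.502. The other Prss2 probe sets gave 0.65 and -0.46, and Rnase1 passed the filter only in Bl. The summed signal of the list, 927318 and 676051 in Bl, was close to that of the goblet product Zg16 alone, so it says little about the other members. Any part of pancreatic tissue in these signals was not tested. Ifngr1, a chain of the interferon-γ receptor, had a difference of 0.43, Fabp1 0.37, Ifit2 0.34, Klk1 0.32, Irgm2 0.21, Socs3 0.16, Zbp1 -0.16, Oasl2 -0.60, Ifit3 -0.67 and Igtp -0.96. The enzymes of glycan assembly St6galnac6, Gfpt2, Mgat4a, St6galnac1 and B4galt3 lay between -0.17 and 0.57. The study picked these genes on the same GeneChips, so their values are no independent evidence.

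**Figure D4:**
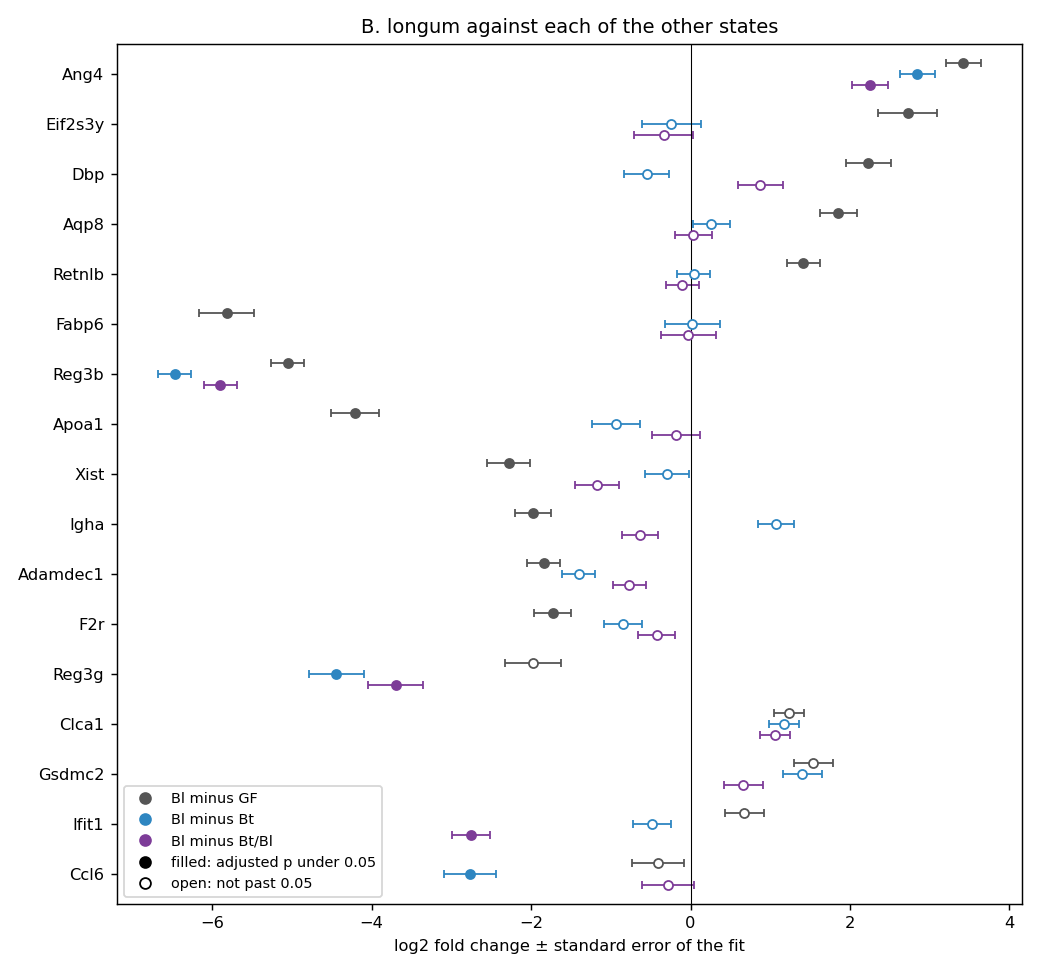
Log2 differences of 17 genes, Bl minus GF, Bl minus Bt and Bl minus Bt/Bl, with the standard error of the fit, filled where the adjusted p was under 0.05. Ang4 and Reg3b are filled in all 3 comparisons, while Fabp6, Aqp8 and Retnlb are near 0 against both other colonized states.

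The 3 comparisons share the Bl GeneChips. Bl held 1 probe set higher and 7 lower than Bt (0.00402% and 0.0282%), and 1 higher and 6 lower than Bt/Bl (0.00402% and 0.0241%). The higher one was Ang4 in both. Reg3b with 2 probe sets, Reg3g and a probe set with no gene name in the annotation used were lower in both. Vnn1 with 2 probe sets and Ccl6 made up the rest against Bt, and Ifit1 and Slfn4, a Schlafen gene of the interferon response, against Bt/Bl. Slfn4 had a difference of -2.55 (adjusted p = 0.025). With the GF GeneChips left out, both Reg3b probe sets passed against both states, Reg3g and Ang4 against Bt and Ifit1 against Bt/Bl, and the other calls of these comparisons were lost. Of the 12 genes past the test against GF, the 10 other than Reg3b and Ang4 did not pass against Bt or Bt/Bl.

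The GlycoGeneChip, a custom array of glycan-related genes, gave a second reading of the same states on 2 GeneChips each, and the labels do not say whether it used the same pools. Of 391 mouse probe sets kept (351 genes) 0 were higher and 1 was lower in Bl than in GF (0% and 0.256%) by limma. At an unadjusted p under 0.05 there were 19 higher and 26 lower. The one that fell was Reg3b, with 3599 and 1194 in Bl, against 44347 and 57740 in GF (log2 difference -4.61, adjusted p = 0.0014). Its second probe set gave 139 and 115 in Bl, below the floor of 1168, against 2611 and 3912 in GF (adjusted p = 0.0609). Gne, which starts sialic acid synthesis, gave 1577 and 1659 in Bl, against 4510 and 4641 in GF (-1.50, adjusted p = 0.0609), while on the Mouse 430 2.0 its difference was 0.04. Over 2-fold without overlap, 14 probe sets were higher and 23 lower (3.58% and 5.88%).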

How the data were processed

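Duplicate GeneChips of each state (Bl 9134 and 9135, Bt 9130 and 9443, Bt/Bl 9132 and 9133, GF 9128 and 9129) were grouped by their labels. The authors deposited linear MAS5 signal intensities per probe set with no detection calls, each GeneChip having a trimmed mean (2%) near 1500, while the paper worked with dChip. This scaling fixes relative levels only, and probe set signals cannot be compared between genes. Signals were floored at the median of all values on the Mouse 430 2.0 (583.1) and at the median of the mouse probe sets on the GlycoGeneChip (1168). They were log2-transformed and fitted by state over all 8 GeneChips of a table, using lmFit and trended eBayes of limma 3.58.1 (R 4.3.3). The fit had 4 residual degrees of freedom, and p-values were adjusted after Benjamini and Hochberg with a threshold of 0.05. The floor understates differences of dim genes. The scripts were tested on simulated data. Of 45101 probe sets 34958 matched 1 gene in the platform annotation, 932 several and 9211 none, and control probe sets were left out. Figures were drawn with matplotlib 3.10.9.

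The members and gene lists were chosen with earlier results of these data known. Most genes named are those the paper names, the 15 largest increases and 15 largest decreases past the test, up to 5 members over 2-fold without overlap in each list, and checks of the libraries. Some were named outside this rule, for example Reg4, Zg16, Muc2, Il18, Pigr, Vnn1 and Slfn4 and, on the GlycoGeneChip, Muc1, Muc3 and Gne. Alternatives varied the floor, filter, scaling, variance model, GeneChips and choice of probe set. Bacterial arrays and qRT-PCR were not analysed here.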

Additional observations from a re-analysis of the deposited data

How the results depend on the processing

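All values come from 2 amplifications of 1 pool per state, so mice were not replicated and depth of sampling is that of 1 pool. Against GF, 5 genes (5 probe sets) were higher and 7 (14) lower. The genes higher and lower numbered 12 and 10 with the floor at the 25th percentile, 11 and 9 with no floor, 10 and 8 with the filter at the 75th percentile, 1 and 5 with a common median or a common 75th percentile, 8 and 7 with quantile normalization, 1 and 3 with untrended eBayes or when Bt and Bt/Bl were dropped from the fit, 13 and 10 with robust eBayes, 2 and 5 with the mean over the probe sets of a gene, and 21 and 19 by a 90% confidence bound above 2-fold. With no filter they numbered 5 and 7, of which 1 and 3 were the same genes. Probe sets numbered 14 higher with the lower floor, 12 with no floor, 11 with the stricter filter, 22 with no filter, 10 with quantile normalization, 14 with robust eBayes and 1 with either common scaling, and 1 higher and 7 lower with untrended eBayes or without Bt and Bt/Bl. With 1 GeneChip left out, genes ranged from 0 to 398 higher and 1 to 148 lower, and probe sets from 0 to 1018 higher and 1 to 226 lower. The high counts came without Bl 9134 (187 and 14 genes) or Bl 9135 (398 and 148). Without either Bl GeneChip 414 probe sets had no spread left, and they made up 267 of 508 and 365 of 1244 calls. Ang4, Apoa1, Fabp6 and Reg3b passed under all 12 other settings, Igha under 9, Xist under 8, Aqp8 and Adamdec1 under 7, and Dbp, Eif2s3y, Retnlb and F2r under 6. The cause of these changes was not tested.

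The alternatives for Bt, Bt/Bl and the GlycoGeneChip were chosen after seeing the data. Against Bt (1 probe set higher, 7 lower) the higher count was 2 with the lower floor, no floor or the stricter filter, 16 with no filter (13 lower), 0 without a trend and 3 with robust eBayes, and the lower count was 3 with either common scaling, without a trend or without GF. It ranged from 0 to 939 higher and 2 to 390 lower without 1 GeneChip. Against Bt/Bl (1 higher, 6 lower) the counts were 2 and 12 with the lower floor or no floor, 2 and 14 with the stricter filter, 19 and 17 with no filter, 3 and 14 with robust eBayes, 0 and 2 without a trend and 0 and 3 without GF, with 2 higher under quantile normalization or the filter on Bl or GF and 0 under either common scaling, and ranges of 0 to 1004 and 2 to 265. On the GlycoGeneChip (0 higher, 1 lower) they were 2 and 3 with the lower floor and 4 lower with no filter, with ranges of 0 to 30 and 2 to 19 (1 lower under quantile normalization).

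Of the genes named, 15 of the values under alternatives changed sign. With a common median Klk1 was -0.020, Mgat4a -0.070, Irgm2 -0.093 and Socs3 -0.19, with a common 75th percentile Irgm2 was -0.038 and Socs3 -0.10, with quantile normalization Irgm2 was -0.063, and with the mean over its probe sets Rsad2 was 0.12. Without 1 GeneChip Klk1 ranged from -0.0080 to 0.66, Irgm2 from -0.25 to 0.67, Socs3 from -0.47 to 0.79, B4galt3 from -0.38 to 0.044, Zbp1 from -0.52 to 0.19, Gfpt2 from -0.18 to 1.20 and Rsad2 from -0.41 to 0.21. The sign turned without GF 9128 for Socs3 and B4galt3, without GF 9129 for Klk1 and Zbp1, without Bl 9134 for Gfpt2 and Rsad2, and without Bl 9135 for Irgm2. Of 62 list medians 32 kept their sign under the 3 other scalings, 12 above 0 and 20 below. No paired analysis was possible because the GeneChip numbers are not shared between states.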

Other observations

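Outside the lists, several genes with bright signals differed over 2-fold without overlap of the duplicates but did not pass the test. They were chosen after their values were seen. Prap1, a proline-rich secreted protein of intestinal epithelium, gave 51414 and 39813 in Bl, against 18873 and 15754 in GF (limma adjusted p = 0.0936), and Cpn1, the catalytic chain of carboxypeptidase N, gave 9232 and 8548 in Bl, against 2796 and 2206 in GF (adjusted p = 0.155). Gja1, the gap junction protein connexin 43, gave 2677 and 2315 in Bl, 18362 and 5927 in Bt, 2513 and 3058 in Bt/Bl and 10238 and 11630 in GF (adjusted p = 0.211 against GF), so Bl lay with Bt/Bl and below both other states. The laminin chain Lamb1 gave 4292 and 3227 in Bl, against 9254 and 14309 in GF (adjusted p = 0.177), Elovl7, a fatty acid elongase, gave 5051 and 6350 in Bl, against 19474 and 14756 in GF (adjusted p = 0.205), and Anxa1, an anti-inflammatory annexin, gave 8227 and 11463 in Bl, against 19055 and 23504 in GF (adjusted p = 0.211).
Aco1, an aconitase that also controls iron mRNAs, gave 8928 and 11197 in Bl, against 19724 and 25521 in GF (adjusted p = 0.215), and Defa31, an alpha-defensin of Paneth cells, gave 308 and 104 in Bl, below the floor, against 3007 and 3566 in GF (adjusted p = 0.223).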
